A study of Mus musculus with 51 samples.

Results

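The proteasome genes of mouse cells were followed through the conversion of fibroblasts by the reprogramming factors c-Myc, Oct4, Sox2 and Klf4. Members were all genes whose annotated symbol begins with Psma, Psmb, Psmc, Psmd, Psme, Psmf or Psmg followed by a digit, which gave 45 of the 16593 genes on the array. They comprised 40 genes of constitutive subunits, activators and assembly chaperones, and 3 immunoproteasome genes (Psmb8, Psmb9 and Psmb10) that were kept apart. Another 2 genes match the symbol rule but were not counted as parts of the proteasome. Psmc3ip encodes a meiotic recombination factor, and Psme3ip1 encodes a partner of the activator Psme3. RNA was measured on 51 Illumina beadarrays, which report a bead brightness per probe. Levels below are normalized log2 intensities, and differences are log2 fold changes with their standard error (SE). A level of one probe cannot be set against that of another.

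All cells carry the strain label rtTA Mouse, the transactivator that switches doxycycline-driven transgenes on. The tested groups were 6 clonal lines labelled F-class and 22 labelled C-class, both at day 16 of primary reprogramming in doxycycline, clone 1 of the F-class again at day 30, and single arrays at days 2, 5, 8, 11, 16 and 18 of a secondary course labelled 1B. A further 2 arrays held doxycycline-independent induced pluripotent stem cells (iPSC), 1 from secondary and 1 from primary reprogramming, and 2 held embryonic stem cells (ESC). The fibroblast arrays were the secondary fibroblasts at day 0 of the course and the primary parental fibroblasts, which came from an embryo at day 15.5. Both fibroblast arrays were used together as the base of comparison. Perturbed cells were 2 Tet-Myc lines after 48 h without doxycycline or in doxycycline, and cells of the F-class treated for 0, 24 and 48 h with an inhibitor of histone deacetylases (HDACi), unnamed in the labels, each group on 2 arrays. Each clone is 1 line on 1 array, and the basis for giving a clone its class is not in the labels.

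The 26S proteasome degrades proteins tagged with ubiquitin. Its 20S core is a barrel of alpha and beta rings, in which Psmb5, Psmb6 and Psmb7 carry the peptidase sites, and the 19S cap binds the ubiquitin tag, unfolds the substrate with its Psmc ATPases and feeds it into the core. Interferon-gamma induces Psmb8, Psmb9 and Psmb10, which replace Psmb5, Psmb6 and Psmb7 in newly built cores, and Psme1 and Psme2, whose products form the PA28 activator ring. These alternative parts are known for making peptides that fit major histocompatibility class I molecules.

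Between 46.6% and 53.4% of the probes were detected per array (detection p under 0.05). Of the 40 constitutive genes 38 could be tested, because the probes of Psma1 and Psma6, both alpha-ring subunits, were not detected on any array. Among the tested genes Psmc6, an ATPase, was detected on 14 arrays, Psmb8 on 13 and Psmb9 on 23. The mean level over 10 pluripotency markers was 7.71 to 9.41 in F-class clones, 6.66 to 11.27 in C-class clones, 11.93 and 12.31 in iPSC, 12.79 and 12.77 in ESC, and 5.40 and 5.54 in fibroblasts. Over 9 fibroblast markers it was 6.06 to 6.62 in F-class clones, 6.15 to 7.28 in C-class clones, 8.45 and 8.37 in iPSC, 9.35 and 7.08 in ESC, and 11.48 and 12.06 in fibroblasts. The first ESC array stood apart, with 7 of 9 macrophage and leukocyte markers detected at a mean level of 9.18, against 2 of 9 at 5.77 on the second, and the day 0 fibroblasts had 6 of 9 at 7.84, against 3 of 9 at 5.65 in the primary fibroblasts. Their part in the results was not tested. In bulk RNA, fewer cells of a type and less RNA per cell cannot be told apart. The deposited values have 1 decimal on 31 arrays, which hold all clones, and several decimals on 20, which hold both iPSC arrays, so that this difference in the files and the comparison of clones with iPSC cannot be fully told apart.

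The core exchanges one peptidase subunit for another at the same place, so the sequences before the starts of a pair of such genes and of their partners are shown. The lines give the bases upstream of the RefSeq start, 5′ to 3′ on the gene's own strand (GRCm38.p6), with searched motifs in capitals. Psmb5 is replaced by Psmb8, and Psmb6 by Psmb9.
Psmb5 (chr14:54617996-54618095, minus strand): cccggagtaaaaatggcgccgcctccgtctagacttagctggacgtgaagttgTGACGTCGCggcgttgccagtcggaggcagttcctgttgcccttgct
Psmb8 (chr17:34197945-34198194, plus strand): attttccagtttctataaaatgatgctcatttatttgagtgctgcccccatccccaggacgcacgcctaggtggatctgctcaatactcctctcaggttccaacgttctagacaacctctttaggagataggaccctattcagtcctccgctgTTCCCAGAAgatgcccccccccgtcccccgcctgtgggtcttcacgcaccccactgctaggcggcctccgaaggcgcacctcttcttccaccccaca
Psmb6 (chr11:70525257-70525356, plus strand): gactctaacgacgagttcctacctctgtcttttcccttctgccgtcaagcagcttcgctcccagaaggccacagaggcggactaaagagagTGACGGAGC
Psmb9 (chr17:34187331-34187555, minus strand): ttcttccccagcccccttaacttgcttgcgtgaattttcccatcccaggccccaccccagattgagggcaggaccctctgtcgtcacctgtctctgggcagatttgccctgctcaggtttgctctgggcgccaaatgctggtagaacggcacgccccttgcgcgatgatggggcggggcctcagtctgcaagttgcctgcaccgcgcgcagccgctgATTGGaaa
The Psmb9 line holds all 225 bases between the starts of Psmb9 and of Tap1, the peptide transporter gene that is read the opposite way from the same interval. The motifs, searched on both strands over the 250 bases before each start, were TGACNNNGC (the antioxidant response element core, read by Nfe2l1 and Nfe2l2), TTCNNNGAA (the gamma-activated site), the interferon-stimulated response element core and CCAAT (read by NF-Y). TTCNNNGAA reads the same on both strands, and the capitals in the Psmb9 line are CCAAT on the other strand. Promoters were available for 39 of the 45 members, credited to RefSeq. TGACNNNGC stood in 5 of 32 constitutive genes other than Psme1 and Psme2 (15.6%, among them Psmb5, Psmb6, Psmd12 and Psmd9), against 11.5% of all 27025 promoters, and CCAAT in 12 of 32 (37.5%), against 37.5% of all promoters. TTCNNNGAA stood in the Psmb8 window and in 8.13% of all promoters, and the interferon-stimulated response element core in none of the 3 immunoproteasome windows, in 3 of the 32 constitutive genes (9.38%, Psmb3, Psmd4 and Psmd9) and in 3.46% of all promoters. A match is a description of letters, and a window without one says nothing of the factor.

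Most constitutive proteasome genes were higher in reprogrammed clones than in fibroblasts. In F-class clones 25 of the 38 tested genes were called higher and 2 lower, against 31.5% higher and 27.2% lower of all 11046 genes tested (limma, Benjamini-Hochberg adjusted p under 0.05). In C-class clones 28 were called higher and 2 lower, against 31.6% and 28.5% of all genes. The median difference over the 38 genes was 0.51 for the F-class and 0.56 for the C-class, beside medians over all genes of 0.10 and 0.09. The 2 lower genes were Psme1 and Psme2 in both comparisons, which share the fibroblast arrays. Leaving out any 1 F-class or fibroblast array gave 19 to 26 higher genes in these comparisons, and C-class arrays were not left out.

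The rise reached every layer of the particle. Of the tested constitutive core genes, 3 of 5 alpha and 5 of 7 beta genes were called higher in F-class clones, and the same counts were called in C-class clones. The 19S cap had 4 of 6 ATPases called higher in both classes, and 6 of 10 non-ATPase genes in F-class against 9 of 10 in C-class clones. Chaperones that build the particle moved most, with 5 of 6 called higher in each class and medians of 0.95 for the F-class and 0.80 for the C-class. The plot of differences from fibroblasts shows these groups side by side.

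**Figure D1:**
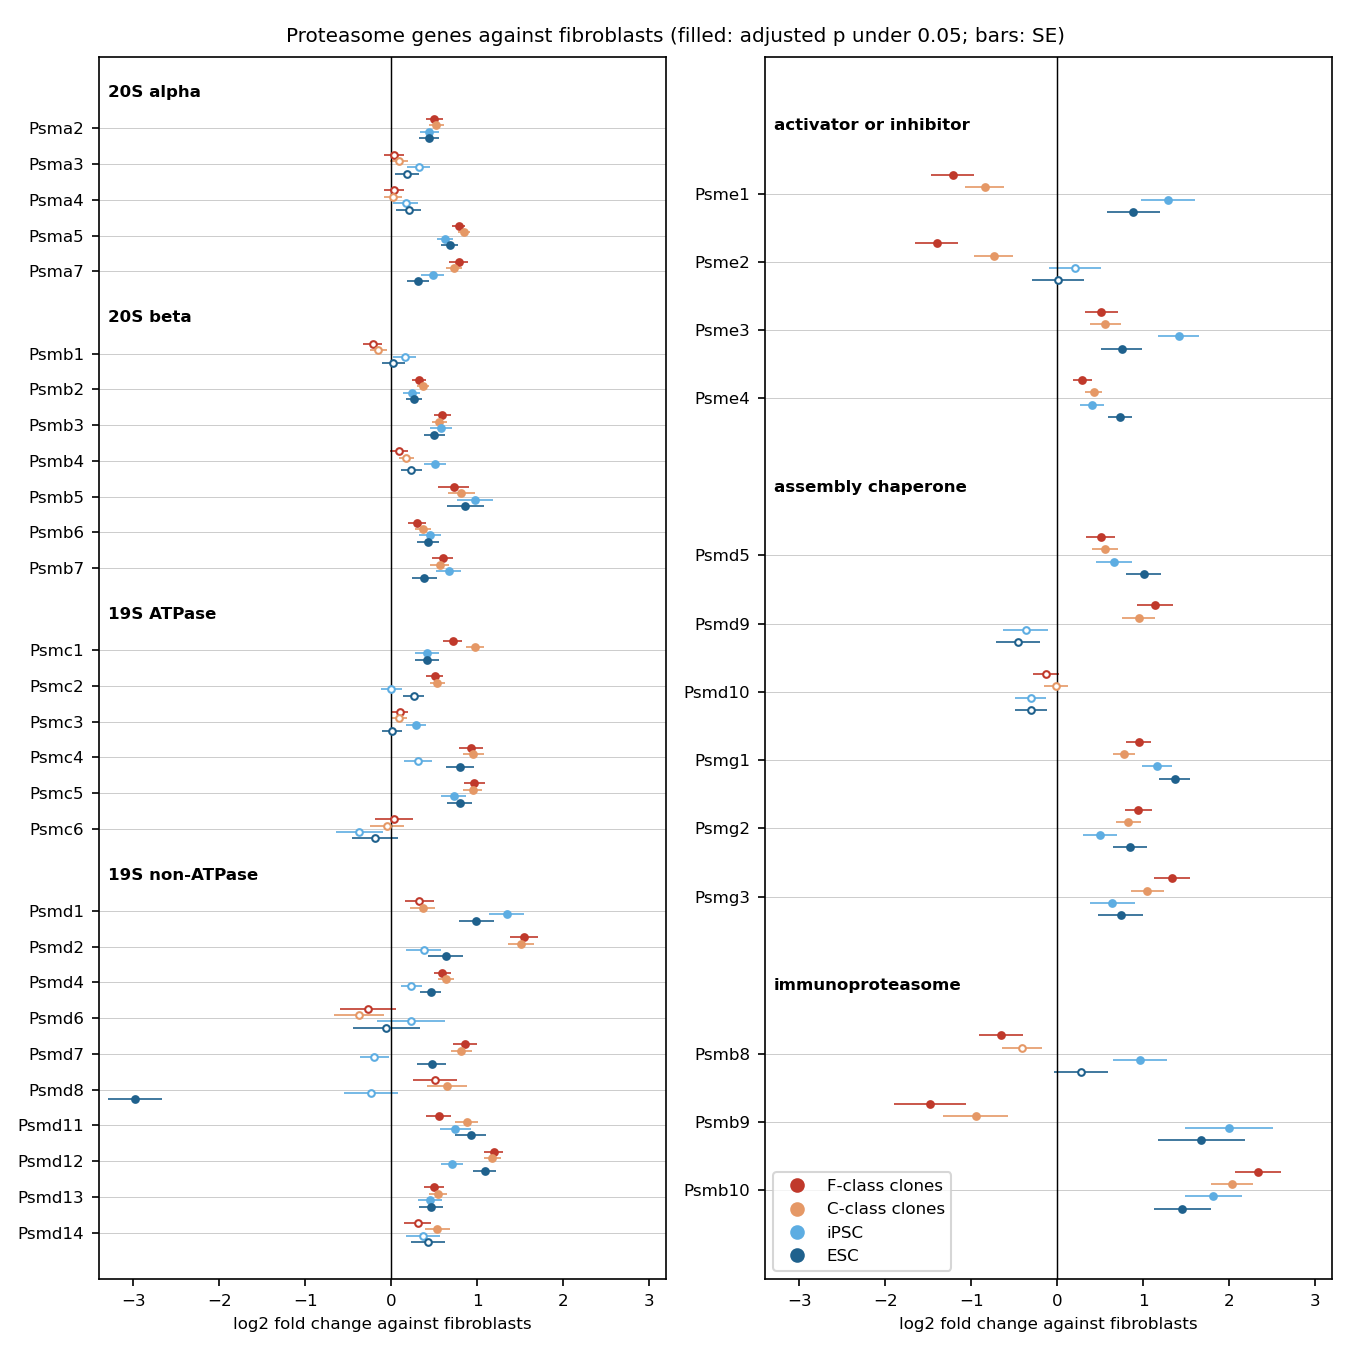
Log2 fold change against fibroblasts (x axis) of each tested proteasome gene, ordered by its part in the particle, for F-class clones (6 arrays), C-class clones (22), iPSC (2) and ESC (2), each against 2 fibroblast arrays. Filled points have an adjusted p under 0.05 and bars are SE, and most constitutive genes lie right of 0 while Psme1, Psme2, Psmb8 and Psmb9 lie left of 0 in the clones and right of it in iPSC.

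Among the peptidase genes of the constitutive core, Psmb5, the chymotrypsin-like site, ran from 9.33 (lowest) over a median of 9.71 to 9.94 (highest) in F-class clones, from 9.47 over 9.81 to 10.05 in C-class clones, and stood at 9.31 and 8.62 in fibroblasts. Both classes lay above both fibroblast arrays, by 0.73 ± 0.18 (SE) and 0.82 ± 0.16. Psmb6, the caspase-like site, ran from 12.98 over 13.10 to 13.15 in F-class clones and from 12.95 over 13.16 to 13.31 in C-class clones, against 12.98 and 12.61 in fibroblasts. Its difference of 0.30 and 0.37 was called although the lowest clones met the primary fibroblast array. Psmb7, the trypsin-like site, ran from 13.57 over 13.58 to 13.71 in F-class and from 13.29 over 13.59 to 13.66 in C-class clones, above 12.86 and 13.14 in fibroblasts. Without the day 0 array the calls ended for Psmb5 (0.38, adjusted p = 0.154 in F-class, and 0.47, adjusted p = 0.0567 in C-class clones) and for Psmb6 (0.11, adjusted p = 0.533, and 0.18, adjusted p = 0.243).

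The largest constitutive differences were in cap subunits and assembly chaperones. Psmd2, the cap subunit on which ubiquitin shuttle proteins dock, ran from 9.00 over 9.13 to 9.35 in F-class clones and from 8.75 over 9.13 to 9.34 in C-class clones, against 7.94 and 7.23 in fibroblasts. No clone reached down to a fibroblast array, and the difference was 1.55 ± 0.17 in F-class (adjusted p = 1.51e-09) and 1.52 ± 0.15 in C-class clones (adjusted p = 2.47e-10). Psmg3, a chaperone of the alpha ring, ran from 10.77 over 10.81 to 11.01 in F-class clones and from 10.07 over 10.56 to 11.15 in C-class clones, against 9.41 and 9.64 in fibroblasts. It was 1.34 ± 0.21 and 1.05 ± 0.19 higher. Psmd12, a subunit of the cap's lid, was 1.19 ± 0.11 higher in F-class and 1.18 ± 0.10 higher in C-class clones, with SDs over clones of 0.07 and 0.10. Psmd9, a chaperone of the ATPase ring, was 1.14 ± 0.21 higher in F-class clones (0.61 without the day 0 array) and 0.95 higher in C-class clones, where the call ended without the day 0 array (0.42, adjusted p = 0.148). Psmc5, an ATPase, rose by 0.97 and 0.95 (0.64 and 0.62 without the day 0 array), and Psmg1 and Psmg2, the pair that seeds the alpha ring, each rose by 0.95 in F-class clones.

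Some constitutive genes were not called. Psma3, Psma4, Psmb1, Psmb4, Psmc3, Psmc6, Psmd6 and Psmd10 did not pass the test in either class, with differences from -0.38 for Psmd6 in C-class clones to 0.18 for Psmb4 in C-class clones. Psmd10 has other probes that disagreed, 1 of which was called 0.53 higher in F-class clones. Psmd1, Psmd8 and Psmd14 were called in C-class clones only (0.37, 0.65 and 0.54), beside 0.33, 0.52 and 0.31 in F-class clones, and the test of the difference between the classes did not call them. The call on Psmd8 in C-class clones ended without the day 0 array (0.38, adjusted p = 0.362) and its direction turned with number format as a term (-0.0137). The C-class call on Psmd1 ended without either fibroblast array (adjusted p = 0.253 without the primary and 0.0824 without the day 0 array). The 2 genes not counted as parts of the proteasome were also called higher, Psme3ip1 by 1.00 and 0.93 and Psmc3ip by 0.66 and 0.51. The Psmc3ip calls ended without the primary fibroblast array (0.20, adjusted p = 0.598, and 0.0477, adjusted p = 0.896), and without the day 0 array Psme3ip1 was 0.47 and 0.39 higher.

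Genes that work on or with the particle were called in both directions. For 9 tested partners and regulators the F-class calls were 3 higher and 2 lower (median difference 0.08), and the C-class calls 3 higher and 1 lower (0.15). Over all genes tested, 31.5% were called higher and 27.2% lower for the F-class, and 31.6% and 28.5% for the C-class. The F-class shares of the 9 genes lie near those of all genes. Uchl5, a deubiquitinase of the cap, averaged 11.45 ± 0.08 in F-class clones, 11.34 ± 0.21 in C-class clones and 9.13 ± 0.27 in fibroblasts (SD, n = 6, 22 and 2). Its differences of 2.32 (F-class) and 2.21 (C-class) exceeded that of any constitutive subunit. Pomp, the maturation protein of the core, was 0.59 and 0.67 higher. Nfe2l1, the transcription factor known to raise proteasome genes when the particle is inhibited, moved the other way, with 11.13 ± 0.08 in F-class clones, 11.37 ± 0.12 in C-class clones and 12.48 ± 0.02 in fibroblasts, a difference of -1.35 and -1.11. Of 6 tested ubiquitin and shuttle genes, 3 were called higher and 1 lower in each class. Among 12 heat shock and stress genes the calls were 6 higher and 1 lower for the F-class and 8 higher and 1 lower for the C-class, with Hspd1, the mitochondrial chaperonin, 1.65 ± 0.16 and 1.55 ± 0.15 higher and Bag3, a co-chaperone, at -0.89 and -0.68.

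The interferon-inducible parts did not move as one. Psmb10 rose strongly, while Psmb9, Psme1 and Psme2 fell. Psmb10, which replaces Psmb7, ran from 12.01 over 12.56 to 12.92 in F-class clones and from 11.78 over 12.13 to 12.97 in C-class clones, against 10.33 and 9.98 in fibroblasts. Every clone exceeded both fibroblast arrays, by 2.34 ± 0.27 in F-class (adjusted p = 6.61e-09, 5.05-fold) and 2.03 ± 0.24 in C-class clones (adjusted p = 1.24e-08), and neither call ended under any alternative run. The second probe of Psmb10 gave 2.35 in F-class clones.

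Psmb9, which replaces Psmb6, ran from 4.81 over 4.89 to 5.02 in F-class clones and from 4.73 over 5.25 to 7.11 in C-class clones, against 6.23 and 6.54 in fibroblasts. The probe was not detected in any F-class clone, was detected in 8 of 22 C-class clones, and was detected in both fibroblast arrays. It was at least 1.70-fold lower in F-class clones (fitted difference -1.48 ± 0.41, adjusted p = 0.00274), a bound taken against the lowest signal of a detected probe. In C-class clones the difference was -0.95 ± 0.38 (adjusted p = 0.0294), and it was not called without either fibroblast array (adjusted p = 0.241 without day 0). Without the day 0 array the F-class call also ended (-1.32, adjusted p = 0.0530). Psmb8, which replaces Psmb5, was near background in fibroblasts too, with 6.18 (detected) and 5.32 (not detected), and it was detected in 1 of 6 F-class and 4 of 22 C-class clones. Its difference of -0.65 in F-class clones ended without the primary fibroblast array (-0.22, adjusted p = 0.592).

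Both PA28 ring genes lay lower in the clones. Psme1 ran from 9.99 over 10.14 to 10.30 in F-class clones and from 9.76 over 10.46 to 11.40 in C-class clones, against 10.94 and 11.77 in fibroblasts. All F-class clones lay below both fibroblast arrays (-1.22 ± 0.26, adjusted p = 0.000126, and -0.80 without the day 0 array), while C-class clones overlapped them (-0.84 ± 0.23, and -0.43 with adjusted p = 0.277 without the day 0 array). Psme2 ran from 8.20 over 8.32 to 8.49 in F-class clones and from 8.38 over 8.92 to 9.87 in C-class clones, against 9.81 and 9.66 in fibroblasts, a difference of -1.40 ± 0.25 and -0.74 ± 0.22. The activators that interferon does not induce did not share this. Psme3, the nuclear PA28 ring, ran from 11.54 over 11.77 to 11.83 in F-class clones and from 11.44 over 11.76 to 12.18 in C-class clones, against 10.87 in the primary and 11.57 in the day 0 fibroblasts. It was 0.52 and 0.56 higher, but neither call held without the primary array (0.17, adjusted p = 0.591, and 0.21, adjusted p = 0.455). Psme4, the PA200 activator, was 0.29 and 0.43 higher. Psmf1, the core's inhibitor, has no probe under that symbol in the platform annotation.

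**Figure D2:**
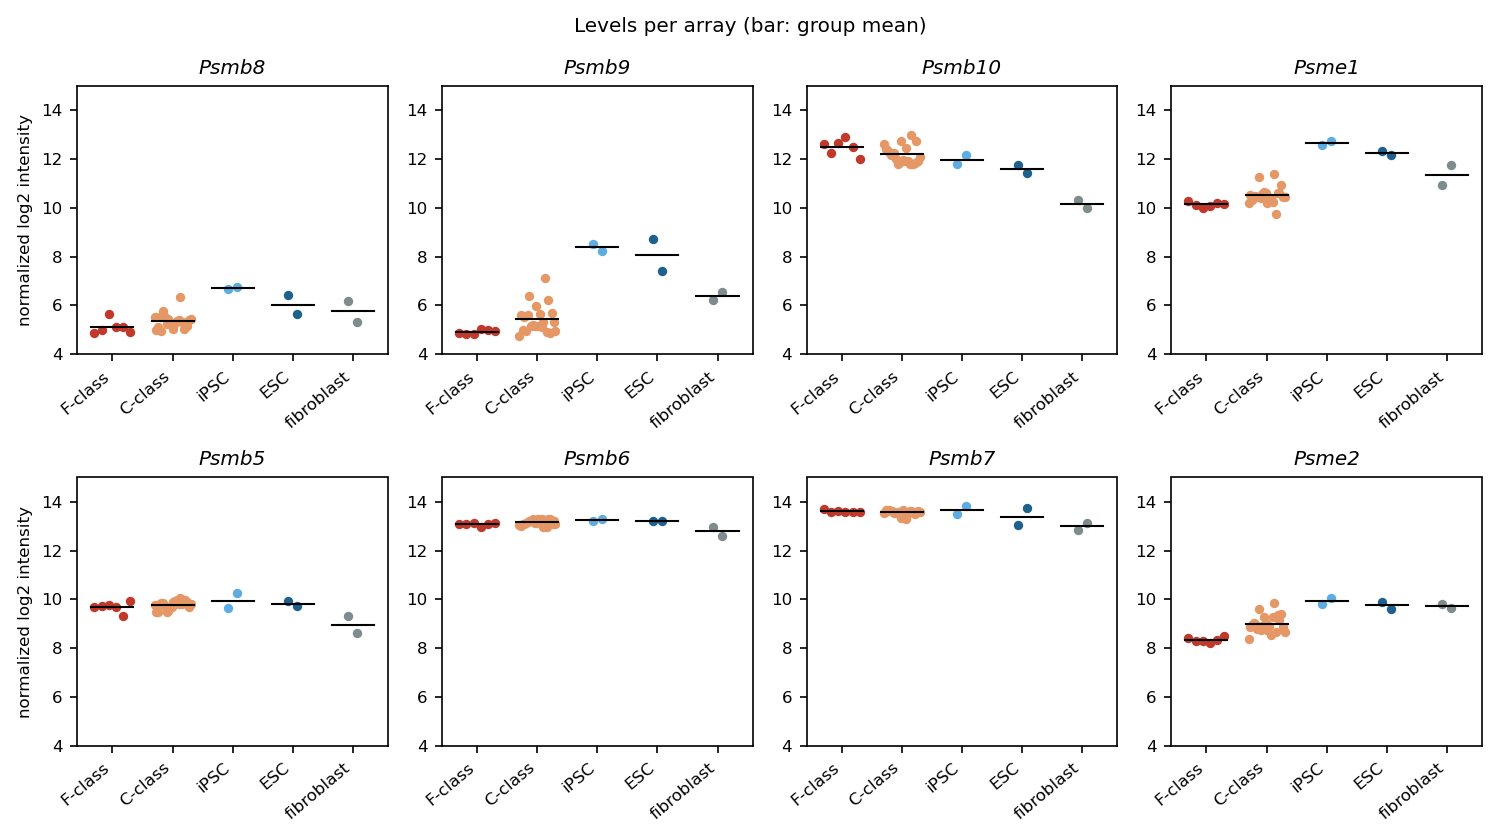
Normalized log2 intensity (y axis) on each array for the immunoproteasome genes and Psme1 (upper row) and the constitutive peptidase genes and Psme2 (lower row) in F-class clones, C-class clones, iPSC, ESC and fibroblasts, with bars at group means. F-class clones lie below iPSC, ESC and fibroblasts in Psmb9, Psme1 and Psme2, C-class clones spread further, and Psmb10 is lowest in fibroblasts.

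Genes of antigen processing lay lower beside these. The F-class calls among 9 tested genes of that list were 0 higher and 8 lower (median -1.41), and the C-class calls 0 higher and 7 lower (median -1.14). Over all genes tested, 31.5% were called higher and 27.2% lower for the F-class, and 31.6% and 28.5% for the C-class. Tap1, the neighbour of Psmb9, averaged 5.10 ± 0.24 in F-class clones, 5.37 ± 0.34 in C-class clones and 6.51 ± 0.37 in fibroblasts. Tap2, its partner in the transporter, averaged 5.09 ± 0.28, 6.03 ± 0.48 and 8.37 ± 0.65 in the same order. Of 13 tested interferon response genes 12 were called lower for the F-class and 8 for the C-class, and Irf1, a transcription factor that drives Psmb9, averaged 8.14 ± 0.62, 10.23 ± 0.83 and 11.39 ± 0.20. Macrophage and leukocyte markers averaged 5.80 to 6.32 in F-class clones and 6.03 to 6.82 in C-class clones, between the levels of the fibroblast arrays given above, and their part in these differences was not tested.

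Most constitutive genes were also called higher in pluripotent cells than in the same fibroblast arrays. In iPSC 23 of 38 constitutive genes were called higher than in fibroblasts and 0 lower (median 0.43), against 22.7% and 22.5% of all genes. Leaving out either iPSC or either fibroblast array gave 16 to 21 higher and 0 to 2 lower. In ESC 25 were called higher and 1 lower (median 0.45), against 24.7% and 23.8% of all genes, and leaving out an array gave 17 to 24 higher, with 24 without the first ESC array. In iPSC the largest rises were in Psme3 (1.41 ± 0.24), Psmd1, the cap's scaffold (1.35 ± 0.20), Psme1 (1.29 ± 0.31) and Psmg1 (1.16 ± 0.18). In ESC they were in Psmg1 (1.37 ± 0.18), Psmd12 (1.09 ± 0.13), Psmd5, a chaperone of the ATPase ring (1.01 ± 0.21), and Psmd1 (0.99 ± 0.20, and 0.55 without the second ESC array).

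Psmb9, Psmb10 and Psme1 were called higher than in fibroblasts in both iPSC and ESC. Psmb9 stood at 8.53 and 8.24 in iPSC and at 8.72 and 7.41 in ESC, against 6.23 and 6.54 in fibroblasts, 2.00 ± 0.51 (adjusted p = 0.0017) and 1.68 ± 0.51 (adjusted p = 0.0065) higher. All 4 arrays lay above both fibroblast arrays, and the first ESC array, which held the macrophage markers, was the higher of the pair. Without that array the ESC call on Psmb9 ended (1.03, adjusted p = 0.164). Psmb10 stood at 11.79 and 12.16 in iPSC and at 11.77 and 11.45 in ESC, against 10.33 and 9.98 in fibroblasts, 1.82 ± 0.33 and 1.46 ± 0.33 higher. Psmb8 stood at 6.67 and 6.77 in iPSC and at 6.41 and 5.65 in ESC, and was called higher in iPSC (0.97) but not in ESC (0.28 ± 0.31). Psme1 stood at 12.56 and 12.74 in iPSC and 12.34 and 12.16 in ESC, against 10.94 and 11.77 in fibroblasts, and was 1.29 ± 0.31 and 0.89 ± 0.31 higher. The Psme1 calls ended without the primary fibroblast array (0.88, adjusted p = 0.0594 in iPSC, and 0.47, adjusted p = 0.316 in ESC), the Psme1 call in ESC also without the first ESC array (0.80, adjusted p = 0.0900), and the Psmb8 call in iPSC without the day 0 array (0.54, adjusted p = 0.245). Psme2 did not pass the test in iPSC (0.21 ± 0.30) or ESC (0.01 ± 0.30).

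Psmd8, a subunit of the cap's lid with 1 probe on the array, was the exception among constitutive genes. It stood at 10.57 and 8.46 in ESC, against 12.76 and 12.22 in fibroblasts, a difference of -2.98 ± 0.31 (adjusted p = 3.07e-09), which was -1.92 without the second ESC array. The ESC arrays differed from each other by more than all 28 clones did, and the lowest of the other 49 arrays stood at 12.22. In iPSC it stood at 12.23 and 12.27.

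Set directly against pluripotent cells, the clones had constitutive genes called in both directions, and Psmb8, Psmb9, Psme1 and Psme2 called lower. Against ESC, F-class clones had 8 of 38 constitutive genes called higher and 7 lower (25.4% and 22.5% of all genes), and C-class clones had 7 higher and 6 lower (22.8% and 22.3%). Against iPSC, F-class clones had 12 higher and 7 lower (28.5% and 24.7%), and C-class clones 11 higher and 7 lower (26.9% and 25.6%). Without the first ESC array the lower counts against ESC were 12 (F-class) and 9 (C-class), and without the second they were 2 in each, while the F-class higher count was 5 without the first. Against iPSC, the F-class higher count was 8 without the first iPSC array, and the C-class lower count was 4 without the second. With all arrays, the shares of the members lie near those of all genes, and all 4 medians lay between 0.03 and 0.11. With the number format as a term of the fit the iPSC counts were 6 higher and 3 lower in F-class and 3 higher and 2 lower in C-class clones.

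Psmb9 was at least 5.46-fold lower in F-class clones than in ESC (fitted difference -3.16 ± 0.41, adjusted p = 3.21e-07) and at least 6.82-fold lower than in iPSC (-3.48 ± 0.41, adjusted p = 5.99e-08). The ESC mean joins 8.72 on the first array, which held the macrophage markers, and 7.41 on the second. Against the second ESC array alone the bound would be smaller. For C-class clones the differences of Psmb9 were -2.63 ± 0.38 from ESC and -2.95 ± 0.38 from iPSC. Psme1 differed by -2.10 ± 0.26 and -2.51 ± 0.26 in F-class clones and by -1.73 ± 0.23 and -2.14 ± 0.23 in C-class clones. Psmb8 differed from ESC by -0.92 and -0.68, and both calls ended without the first ESC array (-0.54, adjusted p = 0.189, and -0.30, adjusted p = 0.465). The differences of Psme2 from ESC were -1.42 in the F-class and -0.75 in the C-class, where the call ended without the first ESC array (-0.63, adjusted p = 0.115). Psmb10 went against these, 0.88 ± 0.27 higher in F-class clones than in ESC (adjusted p = 0.00764), and no call was made in C-class clones (0.58 ± 0.24, adjusted p = 0.0523) or against iPSC. The F-class call on Psmb10 ended without the second ESC array (0.72, adjusted p = 0.117). Among constitutive genes Psmd8 (3.49 and 3.63), Psmd9 (1.59 and 1.41) and Psmd2 (0.91 and 0.88) led the rises over ESC in F-class and C-class clones. Psmd9 (1.51 and 1.32), Psmd2 (1.17 and 1.14) and Psmd7, a lid subunit (1.05 and 1.01), led those over iPSC, and Psmd1 was lower than in iPSC (-1.02 and -0.98). With number format as a term the Psmd1 calls ended in both classes (-0.50 and -0.47), as did the C-class calls on Psmd7 (0.41) and Psmd9 (0.82), and Psmd7 was 0.46 higher in F-class clones.

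Between iPSC and ESC, 1 constitutive gene was called higher (Psmd8, 2.74 ± 0.31) and 1 lower (Psmd7, -0.66 ± 0.17), against 3.68% and 4.47% of all genes. Psmb8, Psmb9, Psmb10, Psme1 and Psme2 did not pass the test, with differences of 0.69, 0.32, 0.36, 0.40 and 0.20. With 2 arrays on each side, this does not show that the levels are alike. The call on Psmd7 ended with number format as a term, without the first ESC array and without the first iPSC array (adjusted p = 0.185, 0.126 and 0.137), and Psmd8 was 1.68 higher without the second ESC array.

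Few constitutive genes differed between the classes of clone. Comparing F-class with C-class clones, 0 of 38 genes were called higher and 3 lower, against 14.1% and 10.6% of all genes (limma), and the median difference was -0.04. The 3 were Psme2 (-0.66 ± 0.14, adjusted p = 0.000733), Psmd11, a lid subunit (-0.33 ± 0.08, adjusted p = 0.0039), and Psmc1, an ATPase (-0.26 ± 0.06, adjusted p = 0.00346). Psme2 overlapped between classes only at its edge, since the lowest C-class clone (8.38) lay below the highest F-class clone (8.49). The call on Psmd11 ended with the mean of all its probes (adjusted p = 0.0829). Psme1 (-0.37, adjusted p = 0.0556), Psmb9 (-0.53, adjusted p = 0.0952), Psmb8 (-0.24) and Psmb10 (0.30) were not called. Antigen processing genes were called higher in 1 case and lower in 4 of 9 in the F-class, with Tap2 at -0.93 ± 0.22 and Tap1 not called (-0.28). Irf1 differed by -2.09 ± 0.33 (adjusted p = 2.6e-05), and its F-class range of 7.47 to 8.90 met the C-class range of 8.56 to 11.92 only at the edge.

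Most constitutive levels were close from clone to clone. The SD over the 22 C-class clones had a median of 0.11 over the 38 proteasome genes and 0.26 over all genes tested. These sets were not matched for brightness, and the part of brightness in this difference was not tested. The inducible genes had SDs of 0.58 for Psmb9, 0.35 for Psme2, 0.35 for Psmb10, 0.34 for Psme1 and 0.30 for Psmb8. The widest of the other constitutive genes were Psmd6 (0.33), Psmg3 (0.27), Psmc6 (0.26) and Psmd9 (0.24). Clone 21 was the highest of the 22 for Psmb8 (6.33), Psmb9 (7.11), Psme1 (11.40) and Psme2 (9.87). This was not limited to inducible genes. Clone 21 was also the highest for Psmb5 (10.05), Psmd5 (9.19), Psmd10 (11.30), Psmd11 (10.32), Psmd12 (12.70) and Psmg2 (11.86). For Psmc1 (11.90) and Psmd8 (12.83) it was the lowest. It also had the highest Irf1 (11.92), the highest mean over the 17 interferon response genes (6.93, against a range of 6.13 to 6.80 in the other C-class clones) and the highest mean over the 12 antigen processing genes (7.55). Its pluripotency marker mean was also the highest of the 22 (11.27), and the part of these markers in its levels was not tested. Its macrophage and leukocyte mean was 6.17, near the low end of the C-class range. Psmb10 did not follow, since clone 21 was among the lowest of the 22 there (11.81), and clone 22 was highest for Psmb10 (12.97) and lowest for Psme1 (9.76). Clone 21 was chosen after its values were seen.

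The secondary course allowed the same genes to be read day by day, on 1 array a day and without a test. Psmb9 stood at 6.54 on day 0, 6.19 on day 2, 5.56 on day 5, 5.35 on day 8, 5.14 on day 11, 5.00 on day 16 and 4.92 on day 18. The probe was detected on days 0, 2, 5 and 8 and not on days 11, 16 and 18, so that the last 3 values have no order among themselves. Psme2 stayed between 9.22 and 9.66 until day 11 and stood at 8.31 on day 16 and 8.30 on day 18, the level of the primary F-class clones. Psme1 stood at 11.77 on day 0, reached 11.91 on day 8 and was at 10.96 on day 16 and 10.92 on day 18, above every primary F-class clone. Psmb8 stayed between 5.01 and 5.41 and was detected on day 8 only. Psmb10 stood at 9.98 on day 0, 11.02 on day 2, 12.00 on day 5, 10.18 on day 8, 11.28 on day 11, 10.90 on day 16 and 11.58 on day 18, so that the day 8 array lay between the neighbouring days and day 0.

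Constitutive genes were also nearer their day 0 level on the day 8 array than on the neighbouring days. Over the 37 detected constitutive genes the median difference from day 0 was 0.04 on day 8. It was 0.41 on day 5 and 0.40 on day 11. On day 5, 14 of 37 detected constitutive genes were at least 1.5-fold higher than on day 0 and 0 lower, against 26.5% higher and 26.5% lower of all genes. On day 8, 1 was higher and 4 were lower (25% and 26.3% of all genes), and on day 18, 14 were higher and 2 lower (32.2% and 28.2%). The 2 lower genes on day 18 were again Psme1 and Psme2. The median difference of the constitutive core genes was 0.36, 0.43, 0.06, 0.40, 0.20 and 0.33 on days 2, 5, 8, 11, 16 and 18, and that of the 19S genes 0.30, 0.37, -0.18, 0.50, 0.33 and 0.61. Psmg3 stood at 9.64 on day 0, 10.93 on day 2 and 11.16 on day 18. Psme3 stood at 11.57 on day 0, 12.00 on day 2, 11.68 on day 5, 11.59 on day 8, 12.14 on day 11, 12.36 on day 16 and 12.62 on day 18. Psmd2, the gene with the largest constitutive rise in the primary clones, stood at 7.23 on day 0 and 7.84 on day 18, below every primary clone. Fibroblast markers averaged 12.06 on day 0, 8.76 on day 8 and 7.15 on day 18, and Nfe2l1 stood at 12.43 on day 8, against 11.11 on day 2 and 11.54 on day 18.

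**Figure D3:**
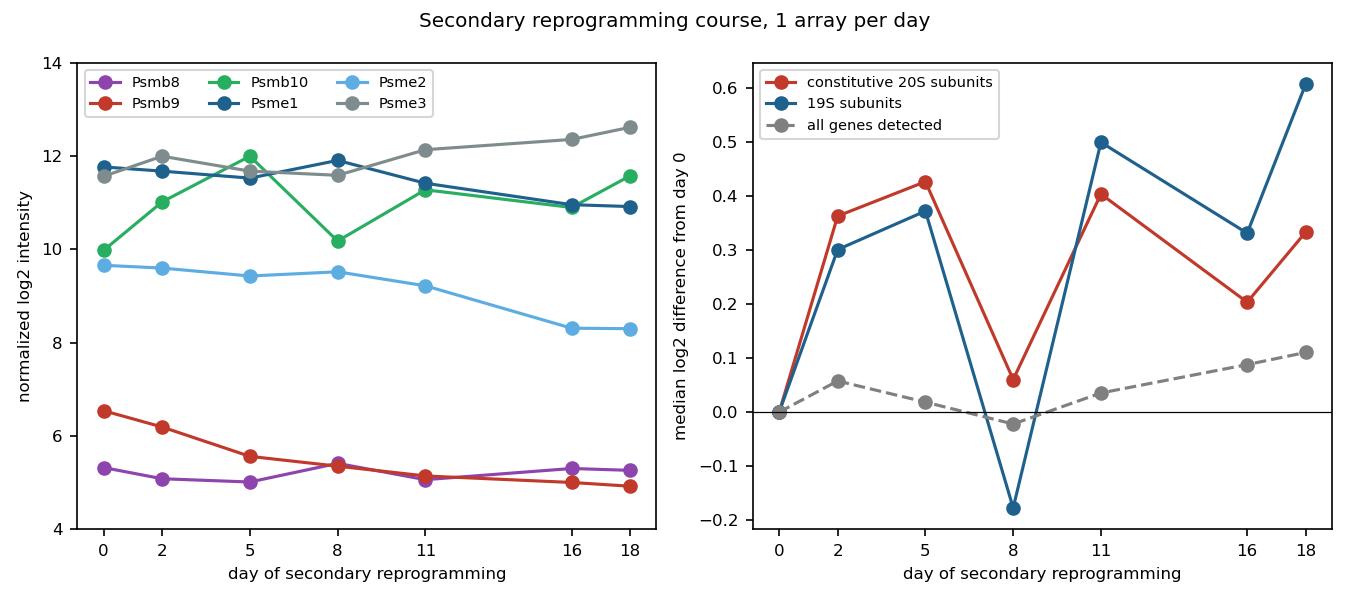
Secondary reprogramming from day 0 to day 18, 1 array a day, with normalized log2 intensity of the inducible genes and Psme3 (left) and the median log2 difference from day 0 of constitutive 20S subunits, 19S subunits and all detected genes (right). Psmb9 is lower on days 2, 5 and 8 than on day 0 and not detected after that, Psme2 is low from day 16, and the constitutive medians and Psmb10 dip on day 8.

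Clone 1 was measured again at day 30 of reprogramming. At that time 3 of 38 constitutive genes were at least 1.5-fold higher than at day 16 and 0 lower, against 6.99% and 7.01% of all genes, with no test. The share called higher lies near that of all genes. The 3 were Psmc6 (6.32 at day 30 and 5.21 at day 16), Psmd6 (7.31 and 6.68) and Psmd14, the cap's own deubiquitinase (11.11 and 10.49). Psmc6 lies near background, with detection on 14 arrays in all. Fewer genes passed the threshold with quantile normalization or with the authors' scaled values. Psmb9 stood at 4.81 at day 30 and 4.85 at day 16, Psmb10 at 12.58 and 12.62, Psme1 at 10.10 and 10.30, and Psme2 at 8.11 and 8.40.

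In Tet-Myc lines, few constitutive genes differed after 48 h without doxycycline. Of 38 genes 2 were called higher and 1 lower without doxycycline, against 7.38% and 7.92% of all 10154 genes tested (limma), with a median of 0.11. With the line as a block, which the design supports because each line was measured both ways, 3 were called higher and 2 lower. Psmb8 stood at 6.20 in line 1 and 7.01 in line 2 without doxycycline, against 5.32 and 5.25 in doxycycline, where it was not detected. It was at least 1.97-fold higher (fitted difference 1.32 ± 0.27, adjusted p = 0.0210) on the mean of the lines, and it was higher in each line. Psmb8 passed the detection filter of this fit only through the arrays without doxycycline, where it is high. Its adjusted p is therefore not independent of that filter and is a description only. The call ended without the line 1 array in doxycycline (adjusted p = 0.0610). Psme2 stood at 10.61 and 10.97 without doxycycline, against 9.46 and 10.21 in doxycycline (0.95 ± 0.25, adjusted p = 0.0425), a call that ended without any 1 of 3 of the 4 arrays (0.58 without line 1 in doxycycline, adjusted p = 0.126). Psme1 stood at 11.54 and 12.34, against 11.09 and 11.55, and was called with the line as a block only (0.62, adjusted p = 0.0323, against an adjusted p of 0.162 without it).

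Psmb9 was higher mainly in line 2, with 7.43 in line 1 and 8.29 in line 2 without doxycycline, against 7.31 and 7.39 in doxycycline, and was not called (0.51 ± 0.26). Psmb10 went opposite ways, at 10.42 in line 1 and 12.05 in line 2 without doxycycline, against 11.68 and 11.76 in doxycycline. Psmc4, an ATPase, stood at 13.50 in both lines without doxycycline, against 12.89 and 12.78 (0.67 ± 0.13, adjusted p = 0.0175). Psmg3 fell to 9.71 and 10.23 without doxycycline, against 11.11 and 10.99 in doxycycline (-1.08 ± 0.19, adjusted p = 0.0130). All 4 calls ended when only these 4 arrays were fitted, which leaves 2 residual degrees of freedom.

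Interferon genes moved beside them. Of 13 tested interferon response genes 4 were called higher without doxycycline and 0 lower, against 7.38% and 7.92% of all genes. Among the 4 were Isg15 (3.41 ± 0.64), Gbp3 (3.30 ± 0.37) and Gbp2 (3.16 ± 0.74). Without line 1 in doxycycline the calls on Isg15, Gbp2, Tapbp and Nfe2l1 ended (adjusted p = 0.0575, 0.112, 0.115 and 0.0924). The mean over the list's 17 genes was 8.08 in line 1 and 7.56 in line 2 without doxycycline, against 6.85 and 6.96 in doxycycline. Tapbp, which holds the class I molecule at the transporter, was 1.94 ± 0.49 higher, while Tap1 (-0.30) and Tap2 (0.11) were not called. Nfe2l1 was 0.73 ± 0.18 higher (adjusted p = 0.0325). The pluripotency markers averaged 10.66 and 11.17 without doxycycline, against 9.41 and 9.30 in doxycycline, and their part in these differences was not tested.

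A few members differed sharply after 48 h in HDACi. The series has no arrays of these cells kept for 24 or 48 h without the inhibitor. The effect of the inhibitor and time in culture therefore cannot be told apart. At 24 h, 0 of 38 constitutive genes were called either way, against 0.965% higher and 1.12% lower of all genes (limma), and at 48 h 1 was called higher and 3 lower, against 14.2% and 14.5%. From 24 to 48 h 1 was called higher (Psmg1, 0.81 ± 0.23) and 1 lower (Psme1, -1.09 ± 0.27), against 8.41% and 8.21%. Psmb9 stood at 5.18 and 5.19 at 0 h, 4.76 and 4.78 at 24 h, and 7.87 and 7.64 at 48 h. It was not detected at 0 or 24 h and was at least 5.08-fold higher at 48 h than at 0 h (fitted difference 2.57 ± 0.26, adjusted p = 0.000765). No other proteasome gene moved as far.

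The PA28 genes moved against it. Psme1 stood at 10.76 and 10.85 at 0 h, 10.95 and 11.01 at 24 h, and 9.96 and 9.82 at 48 h (-0.92 ± 0.27 from 0 to 48 h, adjusted p = 0.0398). Psme2 stood at 9.68 and 9.86 at 0 h, 9.58 and 9.60 at 24 h, and 8.92 and 8.85 at 48 h (-0.88 ± 0.25, adjusted p = 0.0349). Psmb10 stood at 10.01 and 10.03 at 0 h, 9.62 and 9.64 at 24 h, and 10.71 and 10.93 at 48 h, a difference that was not called (0.80 ± 0.44, adjusted p = 0.215). That SE pools the spread of all groups in the fit, among them the Tet-Myc lines without doxycycline (10.42 and 12.05). Psmb8 stayed between 4.62 and 5.07 and was not called at either time. At 0 h these F-class cells had Psmb10 below every primary F-class clone (lowest 12.01) and Psme2 above every one (highest 8.49). Psme1 was also above every one (highest 10.30), and Psmd2, at 8.12 and 8.21, was below every one (lowest 9.00). Psmb9 was not detected in either set. The 2 sets were not compared in a test.

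Among constitutive genes Psmg1 rose to 11.28 and 11.34 at 48 h, against 10.46 and 10.28 at 0 h (0.94 ± 0.23, adjusted p = 0.0188), and Psmd8 fell to 12.99 and 12.94, against 13.77 and 13.59 (-0.71 ± 0.18, adjusted p = 0.0212). The calls from 0 to 48 h on Psme1, Psme2, Psmg1 and Psmd8 ended when any 1 of the 4 arrays was left out, with the lone array assumed to vary like the other groups. Psmc3ip, the recombination factor, rose by 1.33 ± 0.22 at 24 h and 1.68 ± 0.22 at 48 h, and the calls on Psmc3ip at 24 h and on Psmg1 and Psme1 from 24 to 48 h also ended without any 1 array. Beside Psmb9, Tap2 was 1.91 ± 0.26 higher at 48 h (adjusted p = 0.0019), while Tap1 (0.61 ± 0.27, adjusted p = 0.136) and Irf1 (1.41 ± 0.49, adjusted p = 0.068) were not called. The mean over the interferon response genes was 6.45 and 6.46 at 48 h, against 6.37 and 6.40 at 0 h. The pluripotency markers averaged 11.75 and 11.72 at 48 h, against 10.12 and 8.78 at 0 h, and their part in these differences was not tested.

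**Figure D4:**
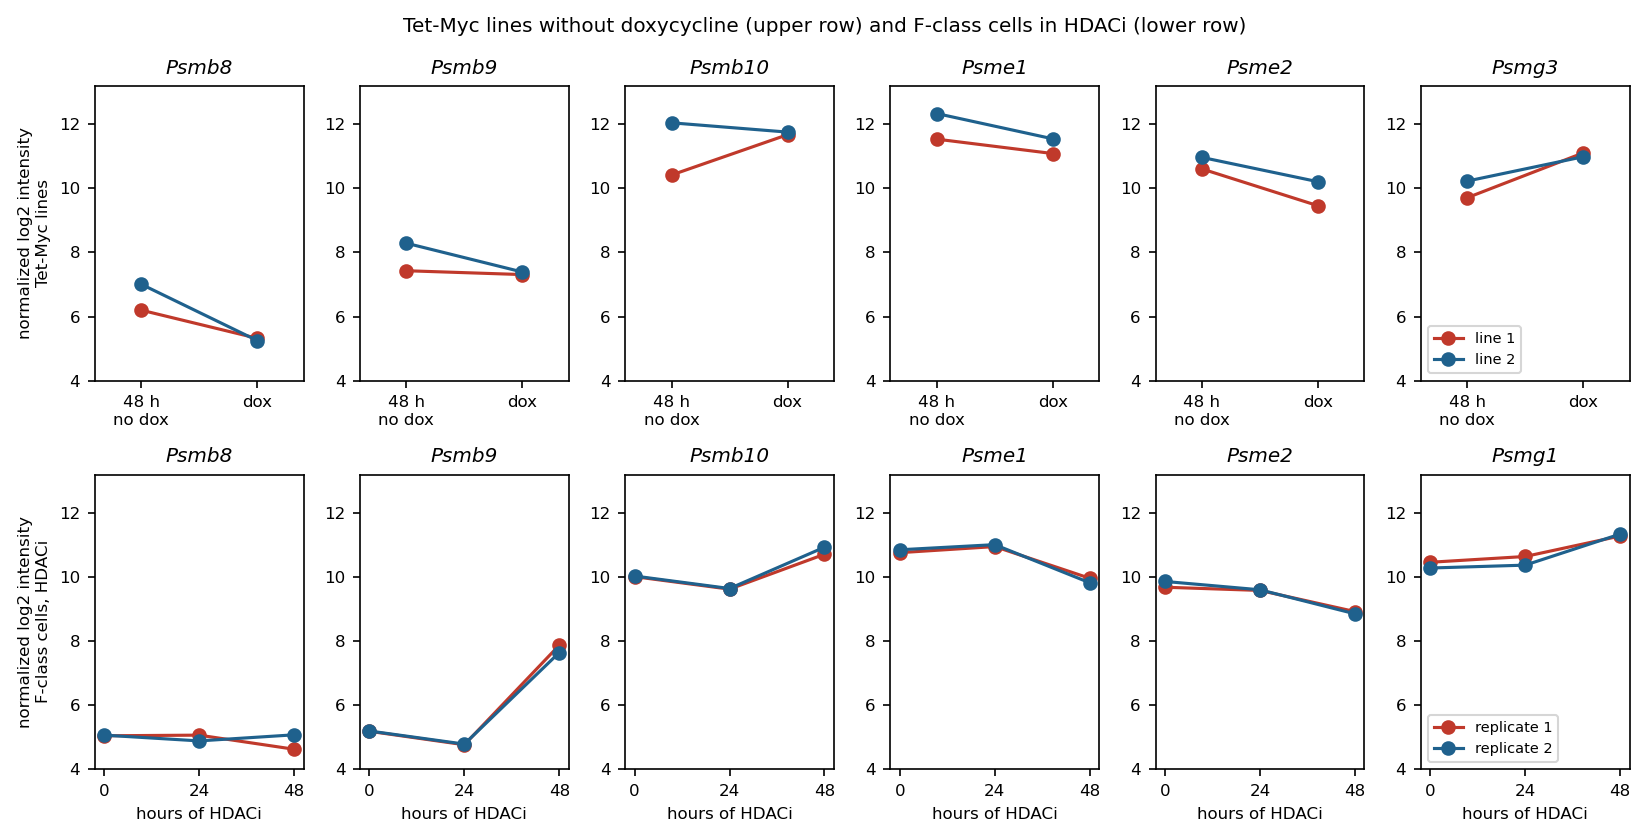
Normalized log2 intensity (y axis) of 6 proteasome genes in Tet-Myc lines after 48 h without doxycycline and in doxycycline (upper row, lines joined) and of 6 in F-class cells at 0, 24 and 48 h of HDACi (lower row, arrays of the same replicate number joined). Psmb8 and Psme2 are higher and Psmg3 is lower without doxycycline in both lines, and at 48 h of HDACi Psmb9 is higher while Psme1 and Psme2 are lower.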

How the data were processed

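RNA of 51 samples, extracted with an RNeasy kit per the labels' protocols, was hybridised to Illumina MouseRef-8 v2.0 arrays. The intensity values that the authors deposited are not normalized (array medians 108.7 to 212.11), and each has a deposited detection p-value per the file headers. A second set of deposited intensity values, scaled by the authors to a median of 143.135 on each array by a method not given in the sources used here, served as an alternative. Intensities were normalized with neqc of limma 3.58.1 (R 4.3.3, offset 16, background estimated through those p-values) and expressed as log2. The platform annotation gave 23978 of the 25697 probes a single symbol and 1719 none. Each gene was represented by its brightest probe, by mean intensity across the arrays, and 16582 genes were found by Entrez number in RefSeq (GRCm38.p6).

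Groups were compared in a fit of the 34 clone, iPSC, ESC and fibroblast arrays (11046 genes) and a fit of the 10 Tet-Myc and HDACi arrays (10154 genes), with genes detected on at least 2 arrays, two-sided, adjusted by Benjamini-Hochberg over all genes of a fit and called under 0.05. Single arrays have no test, only a threshold of 1.5-fold. The clones and the Tet-Myc lines are separate lines, and the iPSC and fibroblast arrays of a group differ in origin. Spread within these groups therefore includes differences between lines or origins. Separate cultures are not stated for the ESC and HDACi arrays, whose spread may be technical. The p-values measure this spread, pooled over the groups of a fit, and the number of arrays limits the precision. "At least" marks a gene undetected throughout one group: the mean of the bright group was set against, on each dim array, the lowest detected signal or the gene's value if that was higher. Named genes were the peptidase, immunoproteasome and activator genes, up to 6 called members with the largest rise and fall per comparison, and genes of the lists. Genes named from the lists, clone 21 and the genes named as not called were picked after their values were seen. The members and lists were chosen with earlier results of these data known. Tet-Myc lines are paired because both states come from the same line (deviations correlated at 0.503). On simulated data with the same spread, the test recovered 67% of genes changed by 1 on the log2 scale and 87% of those changed by 2 for F-class clones against fibroblasts (11046 genes), and 32% and 79% for Tet-Myc lines (10154 genes). Alternatives covered normalization, filters, probes, samples in the fit, number format, left-out arrays and blocks.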

Additional observations from a re-analysis of the deposited data

Results flagged for a closer look

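Across the 6 F-class clones 43 members by symbol were examined, Psmc3ip and Psme3ip1 among them. Of these, 3 had a clone whose distance from the next exceeded Dixon's 95% critical value for groups of this size. Chance alone flags about 1 in 20 such groups. Psma4, an alpha-ring subunit, stood at 13.76 in clone 7, against 13.47 in the next clone. Psmb7 stood at 13.71 in clone 1, against 13.62 in the next. Psmb8 stood at 5.64 in clone 6, the F-class clone in which it was detected, against 5.13 in the next.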

How the results depend on the processing

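Counts are of the 38 constitutive genes, and arrays were left out in every compared group but the C-class. Leaving out 1 array at a time gave these lowest and highest counts of genes called higher, then lower: F-class against C-class 0 to 0 and 3 to 4, F-class against fibroblasts 19 to 25 and 2 to 3, C-class against fibroblasts 23 to 26 and 1 to 3, iPSC against fibroblasts 16 to 21 and 0 to 2, ESC against fibroblasts 17 to 24 and 1 to 2. Against ESC they were 5 to 8 and 2 to 12 (F-class), 8 to 9 and 2 to 9 (C-class), and 1 to 7 and 0 to 3 (iPSC). Against iPSC they were 8 to 12 and 5 to 10 (F-class) and 9 to 14 and 4 to 9 (C-class). Tet-Myc gave 1 to 2 and 1 to 2, and HDACi 0 to 0 and 0 to 0 at all 3 contrasts.

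Fitting only the groups compared, which leaves fewer arrays, gave 5 lower for F-class against C-class, 4 higher for iPSC and 1 for ESC against fibroblasts, 0 either way for iPSC against ESC and for Tet-Myc, 5 higher for HDACi at 48 against 0 h, and 3 higher and 4 lower for 48 against 24 h. Genes detected on every array of a group gave 5 lower for F-class against C-class, and 2 higher for HDACi at 48 h against 0 h and against 24 h. With number format as a term, lower counts were 4 for F-class and 3 for C-class against ESC and 0 for iPSC against ESC, and against iPSC F-class had 6 higher and 3 lower and C-class 3 higher and 2 lower. The mean of all probes gave 1 lower for iPSC against fibroblasts, 4 lower for F-class against ESC, 2 lower for iPSC against ESC, 2 lower for Tet-Myc and 2 higher for HDACi at 48 against 0 h. Quantile normalization and the authors' scaled values each gave 3 lower for iPSC against ESC, 4 higher for HDACi at 48 against 0 h, 2 higher and 2 lower for 48 against 24 h, and 1 higher for clone 1 at day 30. With no detection filter Tet-Myc had 1 higher and HDACi 48 against 24 h had 0. The cause of these shifts was not tested, apart from the smaller fits.

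With the replicate block, Tet-Myc had 3 higher and 2 lower. The HDACi replicate numbers share only a number (deviations correlated at 0.259, 0.0914 and 0.0779); the block gave 5 higher and 3 lower at 48 against 0 h and 3 higher and 3 lower at 48 against 24 h.

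Of 8549 gene values under alternatives 7958 kept direction and call, 375 lost the call, 192 gained one and 24 changed sign. With the mean of all probes, the sign changed for Psmd11 in iPSC against fibroblasts (-0.0917), Uchl5 in F-class against ESC (-0.0375), Psmb7 (0.43), Psmd11 (0.48), Psme4 (0.43) and Uchl5 (-0.16) in F-class against iPSC, and Psmb7 (0.47) and Uchl5 (-0.29) in C-class against iPSC. With number format as a term it changed for Psmd8 in C-class (-0.0137) and Psme3ip1 in iPSC (0.34) against fibroblasts. In F-class against iPSC that term changed Psma3 (0.0385), Psmb1 (0.20), Psmb4 (0.00214), Psmb7 (0.42), Psmc4 (-0.00641), Psmd8 (-0.57) and Psme3 (0.0605). In C-class against iPSC it changed Psmb1 (0.27), Psmb3 (0.42), Psmb4 (0.0897), Psmc3ip (0.15), Psmd8 (-0.44) and Psme3 (0.10). Without the day 0 array Psmd7 in ESC against fibroblasts was -0.0261, and leaving out each array in turn gave -0.0261 to 0.97.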
